A study of Rattus norvegicus with 2 samples.

Results

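The genes described here are the nuclear-encoded subunits of the mitochondrial respiratory chain and ATP synthase, taken as every gene whose symbol starts with Nduf followed by a subunit letter (a, b, c, s or v) and a number, with Uqcr, with Cox4 to Cox8 or with Atp5, together with Sdha, Sdhb, Sdhc, Sdhd, Cyc1 and Cycs. This rule uses symbols and no measured value. It took 80 of the 17202 genes in the table. By complex these were 33 genes of complex I, 4 of complex II, 10 of complex III with cytochrome c, 17 of complex IV and 16 of complex V.

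RNA was sequenced in bulk from cultured rat oligodendrocyte precursor cells (OPCs), the dividing glia from which oligodendrocytes, the myelin makers of the brain, are formed. One culture was treated with amyloid-beta (Aβ) at 1 µM for 2 days and the other with its solvent DMSO. Each condition gave 1 library, so there was no replicate check, no test was possible and no p-value is given. Both cultures were labelled wild type, from brain, and grown in the medium named OGM. The protocol text on treatment is the same for both samples and speaks of Aβ, so the time in DMSO is known from that text alone. The labels speak of adult cells in one place and of developing rats in another, and do not say whether animals were pooled. Both sample titles begin with P1, which the labels do not explain. The comparison asks whether cells exposed to Aβ held the transcripts of the respiratory chain at another level than cells in DMSO.

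The respiratory chain makes most of a cell's ATP. Complexes I and II pass electrons from NADH and succinate to coenzyme Q, complex III passes them to cytochrome c, complex IV to oxygen, and complex V, the ATP synthase, uses the proton gradient that complexes I, III and IV build. Most subunits are encoded in the nucleus and imported into mitochondria, while a few hydrophobic core subunits are encoded by mitochondrial DNA and were not analysed here. Oligodendrocyte precursors are regarded as cells that use much oxidative metabolism on their way to making myelin.

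Nuclear genes for respiratory chain subunits often carry promoter sites for NRF1, for ETS factors such as GABP (NRF2) and for YY1. RefSeq promoter sequences (build GRCr8, 250 bases before to 50 after the start) were at hand for 68 of the 80 genes. The sequences below show where the letters of 2 of these motifs lie in 8 subunit genes, with the motif in capitals, 5′ to 3′ on the gene's strand. They are shown because the genes of the chain are commonly described through these shared sites.
Atp5g2, NRF1 letters, chr7:135678255-135678284, minus strand: ggctctagtcGCGCATGCGCagagccttct
Atp5i, NRF1 letters, chr14:1464774-1464803, plus strand: ttgcgctacgGCGCATGCGCtttcctggct
Atp5o, NRF1 letters, chr11:44657523-44657552, minus strand: acgccgacgcGCGCATGCGCtctggcatca
Ndufa11, NRF1 letters, chr9:1637507-1637536, plus strand: cctgcgctgtGCGCATGCGCatgcgcacag
Atp5j, YY1 letters, chr11:37375193-37375222, minus strand: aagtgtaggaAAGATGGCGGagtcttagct
Ndufa9, YY1 letters, chr4:161374141-161374170, minus strand: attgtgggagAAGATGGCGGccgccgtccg
Ndufb8, YY1 letters, chr1:253362896-253362925, minus strand: ggagaaggtgAAGATGGCGGcgtcccgggc
Ndufs4, YY1 letters, chr2:47794891-47794920, minus strand: tgcccacaggAAGATGGCGGcggtctcaat

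Both strands were searched for exact letters. The NRF1 letters (the capitals of the Atp5g2 line), which read the same on both strands, were in 4 of the 68 promoters (5.88%), in 1.90% of the promoters of 10615 measured genes and in 0.932% of all 27457 promoters. In the Ndufa11 window they occur again in overlap. The YY1 letters (the capitals of the Atp5j line) were in 8 of 68 (11.8%), in 2.54% of those of measured genes and in 1.16% of all. They hold ATG, lay on the gene's own strand in all 8 genes and mostly just after the transcription start, so they may also be the first codons of a protein, which was not tested. The ETS letters CCGGAAG were in 19 of 68 (27.9%), in 17.6% and in 9.22%. These shares describe letters and were not tested, and the promoters of the subunits had a lower median GC content (57%) than those of measured genes (61.3%). The 4 genes with the NRF1 letters had no common direction between libraries: Aβ over DMSO was 0.939 for Atp5g2, 1.07 for Atp5i, 0.942 for Atp5o and 1.04 for Ndufa11.

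The respiratory chain was strongly expressed in both cultures. Levels between genes are given as TPM, the deposited transcript abundance, which takes account of transcript length and library size. Of the 80 genes, 68 lay at 100 TPM or more in both libraries and 14 at 900 TPM or more, while the median over all measured genes was 20 TPM with Aβ and 19.4 with DMSO. The subunits summed to 3.23% of all TPM with Aβ and 3.33% with DMSO. Complex V held the largest part of this, with 1.14% and 1.17%, followed by complex IV with 0.893% and 0.924% and complex I with 0.862% and 0.887%. Complex III with cytochrome c had 0.252% and 0.262%, and the 4 genes of complex II had 0.0836% and 0.0828%. The median over all measured subunits was 284.5 TPM with Aβ and 284.8 with DMSO. By complex it was 241 and 265 TPM in complex I, 213 and 207 in complex II, 219 and 227 in complex III with cytochrome c, 625 and 621 in complex IV and 625 and 688 in complex V. Levels ran in nearly the same order in both libraries (Spearman's rho 0.997 and Pearson's r 0.992 of log2 TPM over 78 genes, a description, since all genes share the 2 libraries).

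**Figure D1:**
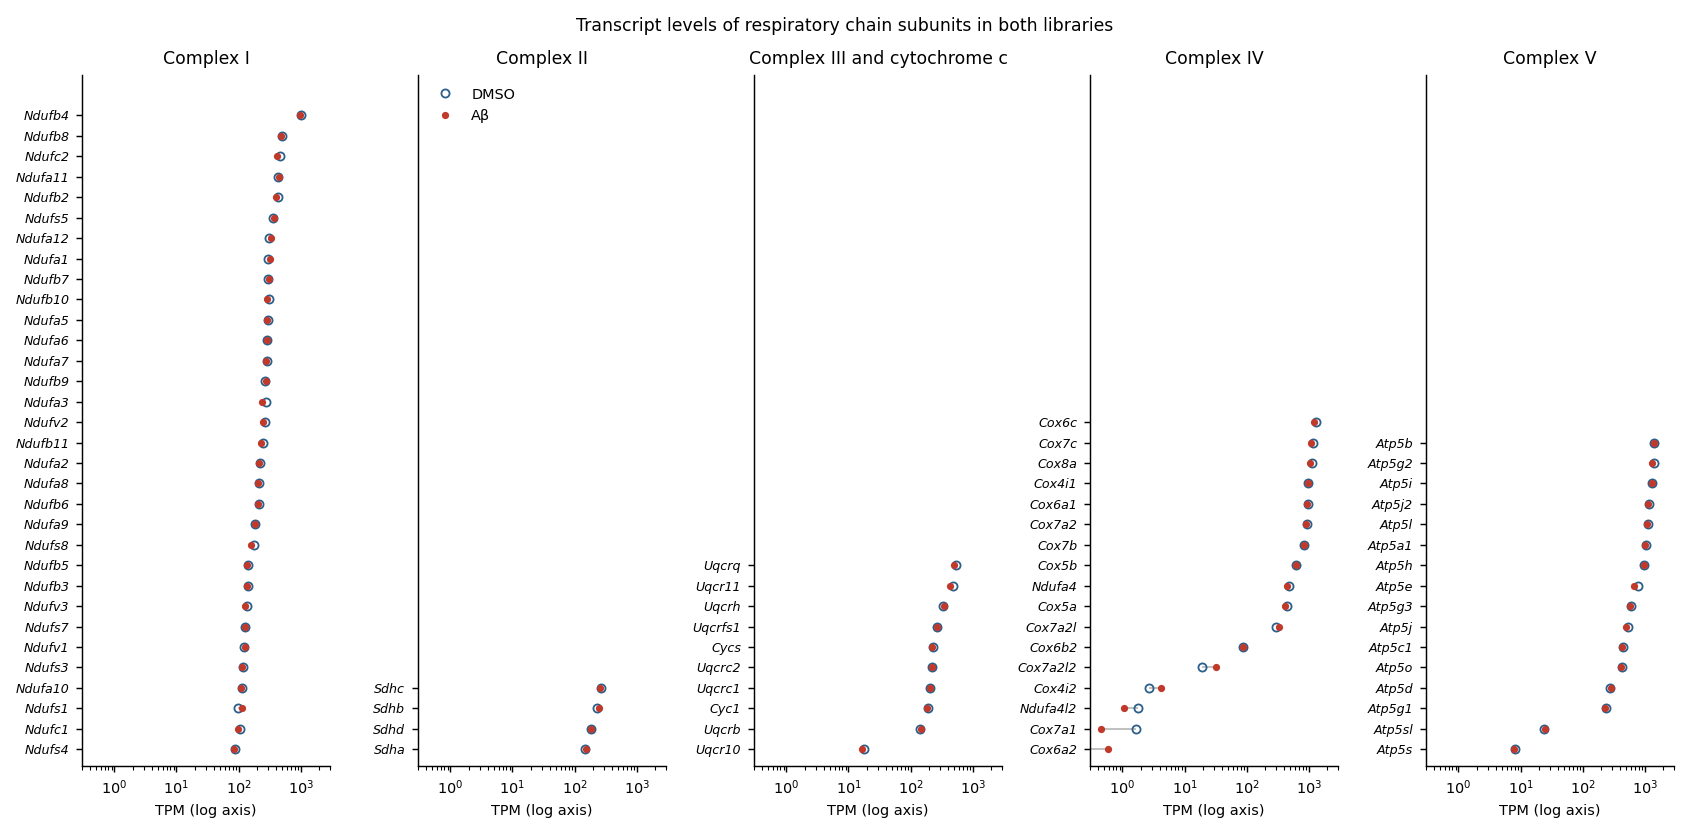
TPM of 79 of the 80 subunit genes (log axis) in the Aβ library (filled) and the DMSO library (open), ordered by mean level within each complex. Most genes lie between 100 and 1424 TPM and the points of both libraries nearly coincide, apart from low entries of complex IV. Cox6a2 is listed at 0 with DMSO, so only its Aβ point is drawn.

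No subunit gene of appreciable level differed much between the libraries. Ratios are given as Aβ over DMSO from the estimated counts, after scaling to library size, with an exact 95% interval that covers counting error only. A gene counted as measured at 1 CPM (the count scaled to library size) or more in at least 1 library, which 78 of the 80 genes passed. The others were Cox6a2, with 1 and 0 counts, and Ndufa4l2, with 7 and 12. All 73 genes at 10 CPM or more in both libraries had a ratio within 1.2-fold of 1, and for 62 genes the whole counting interval lay within 1.2-fold. A gene was called different at 2-fold or more with an interval that leaves out 1. No subunit was called higher, against 0.267% of the 13505 measured genes, and 1 was called lower (Cox7a1), against 0.407%; in either direction 0.674% of all genes were called.

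Within this narrow range more subunits lay slightly below DMSO than above it. Of 78 measured genes, 57 had a lower and 21 a higher value with Aβ, where 50.3% of all measured genes were lower. The median log2 ratio was -0.056 over the subunits and -0.00078 over all genes. In all, 15 subunits had an interval wholly below 1 and 3 an interval wholly above it, that is 19.2% and 3.85% of those measured, where 6.88% and 6.49% of all genes did. At 1.5-fold or more with such an interval, 1 subunit was higher (Cox7a2l2), against 0.777% of all genes, and 1 lower (Cox7a1), against 0.955%; at 1.2-fold or more they were the same 2 genes, against 2.33% and 2.35%. A deeper count gives a narrower interval, and the subunits had a median of 1170 counts with Aβ and 1194 with DMSO, against 486 and 480 over all genes. Counts summed over the 80 genes were 144780 with Aβ and 147869 with DMSO, giving a ratio of 0.971 (0.964 to 0.978). These values describe 2 libraries, and the spread between cultures, against which a difference of this size would have to be read, was not measured. In bulk RNA a smaller share of cells rich in these transcripts and less RNA per cell cannot be told apart.

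**Figure D2:**
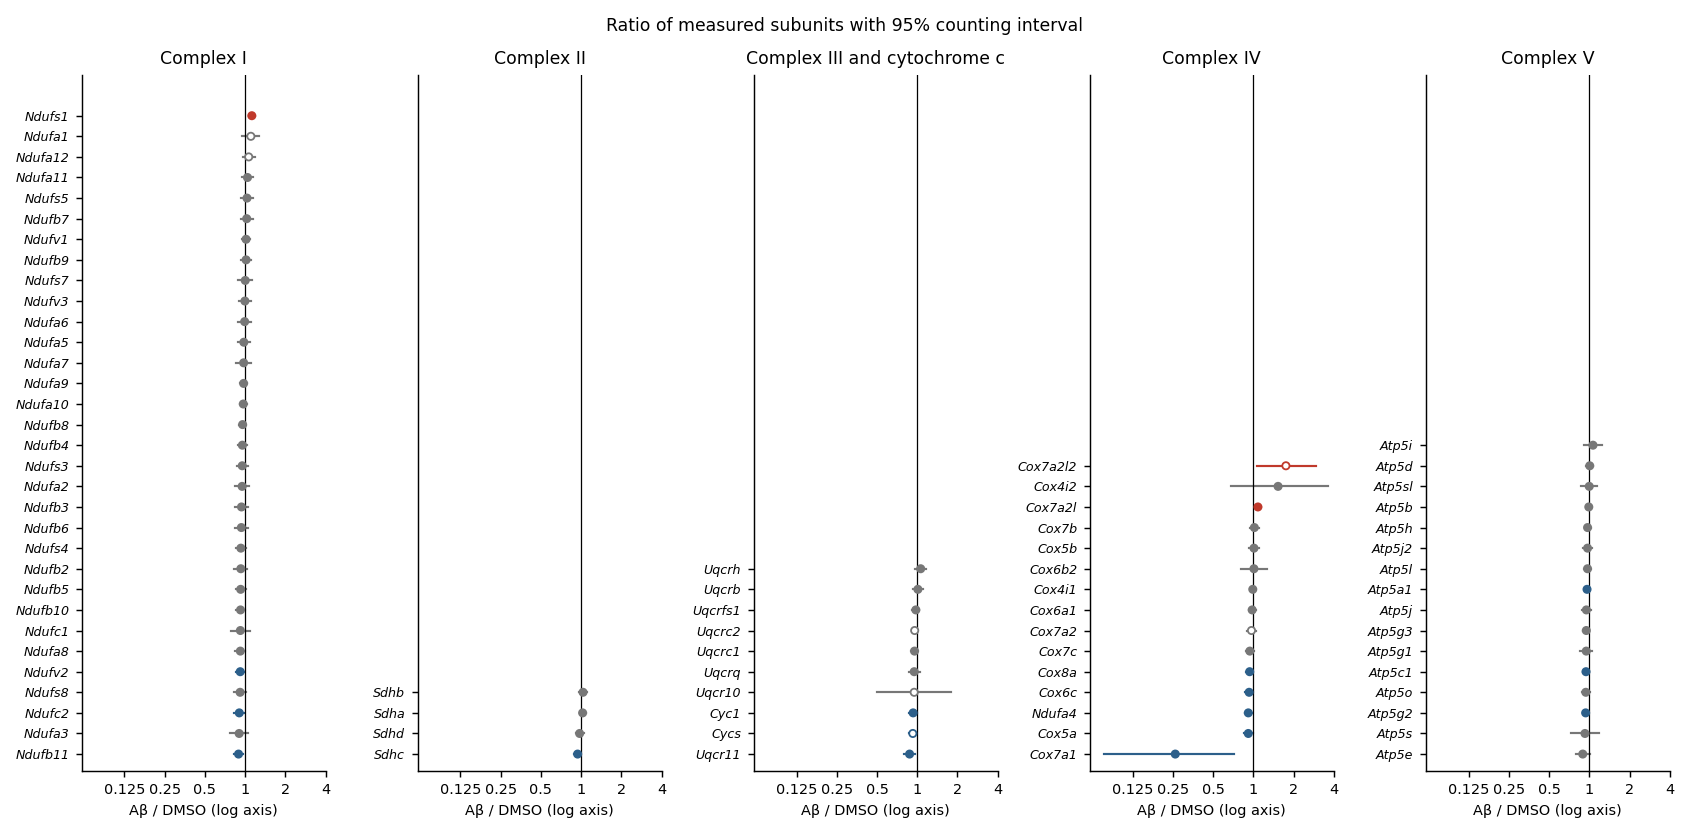
Ratio of Aβ over DMSO for 77 of the 78 measured subunits (log axis), with its 95% counting interval, sorted within each complex. Blue marks an interval wholly below 1 (15 genes), red one wholly above 1 (3 genes), grey the rest, and open points are genes with fractional estimated counts.

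Short transcripts as a class also lay slightly lower with Aβ, and most subunit transcripts are short. The effective length, the length that the deposited FPKM values imply, had a median of 349 bases with Aβ and 343 with DMSO over the subunits, against 2318 and 2317 over all genes. By length, the median log2 ratio was -0.037 over the 220 measured genes under 250 bases and 0.025 over the 2992 genes of 4000 bases or more. With the trend over all genes taken out, the subunits' median was -0.031 against -0.0053 over all genes, and 47 of 78 subunits lay below 0, against 52.2% of all genes. With TPM the subunits' median was -0.050 and that of all genes 0.037, and 55 of 78 subunits lay below 0, against 36.4% of all genes. Within classes of length, the 30 subunits under 250 bases had a median of -0.041. Over all 220 genes of that class, which include these subunits, it was -0.037. With TPM both medians were at -0.051, and they are not independent. From 250 to 500 bases the 20 subunits had a median of -0.080 and all 407 genes -0.044, from 500 to 1000 bases 15 subunits had -0.074 and all genes -0.017, and from 1000 to 2000 bases 12 subunits had -0.052 and all genes -0.011. In the shortest class, which holds the most subunits, the subunits' median was near that of the whole class. From 250 to 2000 bases the subunits' median was lower than that of each class. Every class includes its own subunits. The part that length has in the result was not tested beyond these values.

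**Figure D3:**
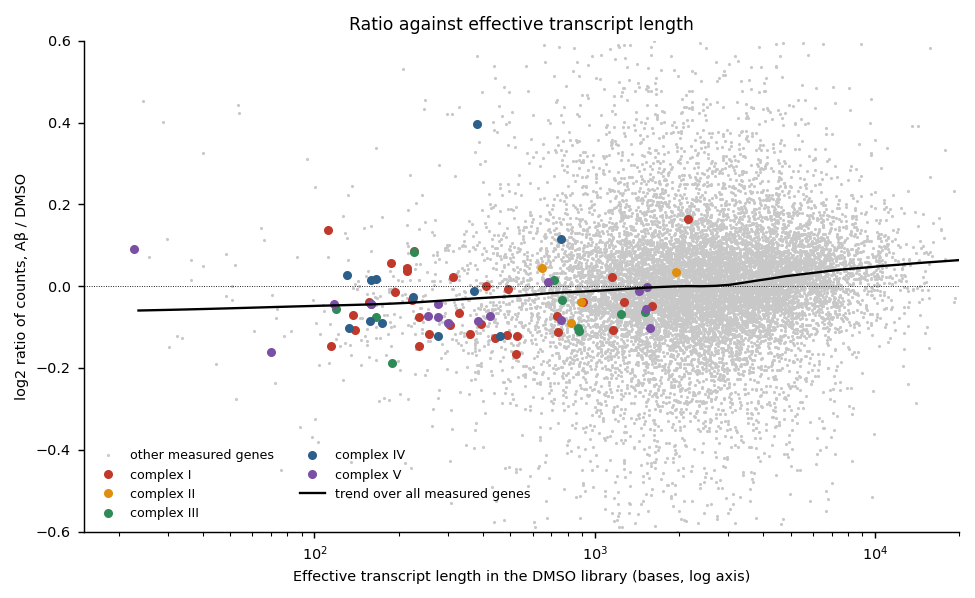
Log2 ratio of Aβ over DMSO against effective transcript length (log axis) for measured genes (grey), with subunits coloured by complex and the lowess trend over all measured genes as a line. Values beyond 0.6 in size, among them Cox7a1 and Cox7a2l2, lie outside the axis. The subunits sit at the short end, where the trend runs slightly below 0.

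Genes for ribosomal proteins are set beside these values. Genes for cytosolic ribosomal proteins had a median log2 ratio of -0.041 over 75 measured genes, with 58 below 0 (77.3%, against 50.3% of all genes), 35 with an interval wholly below 1 (46.7%, against 6.88%) and 4 with one wholly above it (5.33%, against 6.49%). Genes for mitochondrial ribosomal proteins, which translate the subunits made inside mitochondria, had a median of -0.014 over 74 genes, with 42 below 0 (56.8%), 5 with an interval wholly below 1 (6.76%) and none above it, shares near those of all genes except the last. Their median level was 66.3 TPM with Aβ and 65.4 with DMSO, well under that of the subunits. The cytosolic ribosomal genes had 6487 median counts with Aβ and 6919 with DMSO, so their intervals are narrower than those of the subunits. Their transcripts are also short, with median effective lengths of 246 and 240 bases, and 25 of the 75 have fractional counts. With the length trend removed, 42 of 75 lay below 0, against 52.2% of all genes, and their median was -0.016. With TPM 55 of 75 lay below 0, against 36.4% of all genes. The difference between these families and the subunits was not tested.

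Complex I, which oxidises NADH, had 24 of its 33 genes below 0 (72.7%, against 50.3% of all genes) and 9 above. Its median log2 ratio was -0.065. With the length trend removed, its median was -0.033 and 20 of 33 genes lay below 0, against 52.2% of all genes. The summed counts of complex I were 35623 with Aβ and 36361 with DMSO, giving a ratio of 0.972 (0.958 to 0.986). The largest value above 1 at 10 CPM or more belonged to Ndufs1, the large iron-sulphur subunit that carries electrons away from the NADH site. Ndufs1 had 2564 estimated counts with Aβ and 2270 with DMSO (112 and 97.3 TPM), a ratio of 1.12 (1.06 to 1.19). It was the only complex I gene with an interval above 1, and the subunit with the longest effective transcript length (2158 and 2153 bases); its log2 ratio was 0.16 both before and after removal of the length trend. Ndufv2, another iron-sulphur subunit of the same NADH-oxidising end, had 1401 and 1514 counts, a ratio of 0.918 (0.853 to 0.988), so partners in the same part of the enzyme lay on opposite sides of 1. Ndufv1, which holds the FMN group where NADH is oxidised, had 1585 and 1549 counts, a ratio of 1.01 (0.946 to 1.09).

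The 7 nuclear-encoded core subunits of complex I, which carry out electron transfer, had 3 values above and 4 below 0 and a median of -0.040. Among them, Ndufs3, Ndufs7 and Ndufs8 belong to the arm that hands electrons to coenzyme Q. Ndufs3 had 900 and 940 counts and a ratio of 0.95 (0.866 to 1.04). Ndufs7 had 580 and 575 counts (1.00, 0.890 to 1.12) and Ndufs8 769 and 833 counts (0.916, 0.829 to 1.01). These 3 intervals include 1. By module, the median was -0.0062 over 8 genes of the NADH-oxidising module, -0.039 over 8 genes of the coenzyme Q module and -0.092 over 19 accessory genes of the membrane arm, the proton-pumping part. With TPM these medians were -0.039, -0.023 and -0.081, and with the length trend removed 0.023, -0.010 and -0.061, so the order of the first and second depends on the scale and the sign of the first on the length trend.

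The membrane arm held the complex I genes with the lowest ratios and the highest levels. Ndufb11, an accessory membrane subunit, had 1269 and 1412 counts (225.8 and 248.8 TPM) and a ratio of 0.891 (0.826 to 0.962). Ndufc2 had 1084 and 1191 counts (421 and 464 TPM) and a ratio of 0.903 (0.831 to 0.981). Ndufb11, Ndufc2 and Ndufv2 were the complex I genes with an interval below 1 (9.09%, near the 6.88% of all genes). Ndufb4, the most abundant complex I transcript at 967 and 1027 TPM, had a ratio of 0.952 (0.886 to 1.02), and Ndufb8, next at 490 and 506 TPM, one of 0.956 (0.895 to 1.02). Ndufa3 had 307 and 338 counts (0.901, 0.769 to 1.05). On the other side, Ndufa1 was listed at 400.02 and 360.47 counts, a ratio of 1.10 (0.953 to 1.27), and Ndufa12, an accessory subunit close to the NADH-oxidising arm, at 814.99 and 760.99 (1.06, 0.961 to 1.17). Both have fractional counts, which may hold reads shared with other entries.

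Complex II, succinate dehydrogenase, is built from nuclear genes alone and also serves the citric acid cycle. Its genes did not lean to one side. Sdha, the flavoprotein that oxidises succinate, had 3221 estimated counts with Aβ and 3119 with DMSO (155 and 147 TPM), a ratio of 1.02 (0.975 to 1.08). Sdhb, the iron-sulphur subunit, had 1695 and 1630 counts (245 and 233 TPM), a ratio of 1.03 (0.963 to 1.10). Both catalytic subunits thus had slightly more counts with Aβ, with intervals that include 1. The membrane anchors were on the other side. Sdhc had 2250 and 2375 counts (256 and 266 TPM), a ratio of 0.940 (0.887 to 0.996), and Sdhd had 1727 and 1761 counts (181 and 182 TPM), a ratio of 0.973 (0.910 to 1.04). Sdhc was the only gene of complex II with an interval that left out 1 (25% of 4, against 6.88% of all genes below 1). The summed ratio of the complex was 0.993 (0.964 to 1.02). Its median of -0.0026 turned to 0.033 with TPM, a scale on which the median of all genes was 0.037. It was 0.0039 with DESeq2 size factors and 0.0044 with the length trend removed.

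Complex III and cytochrome c had 8 of 10 genes below 0 (80%, against 50.3% of all genes) and a median of -0.066. Their summed ratio of 0.955 (0.935 to 0.977) was the lowest of the 5 groups. Of the 10, 3 had an interval below 1 (30%, against 6.88% of all genes). Uqcr11, a small accessory subunit, had 880 estimated counts with Aβ and 996 with DMSO (424 and 484 TPM), a ratio of 0.876 (0.799 to 0.961). Cyc1, cytochrome c1, which passes electrons to cytochrome c, had 1718 and 1829 counts (185 and 194 TPM), a ratio of 0.932 (0.872 to 0.996). Cycs, the mobile carrier cytochrome c itself, was listed at 2045.17 and 2189.39 counts (219 and 231 TPM), a ratio of 0.927 (0.872 to 0.985). Its counts are fractional and are taken up again with its near-copy.

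The other genes of complex III had intervals that include 1. Uqcrfs1, the Rieske iron-sulphur protein, had 2193 and 2228 counts (0.976, 0.920 to 1.04). The core proteins Uqcrc1 and Uqcrc2 had ratios of 0.954 (0.904 to 1.01) and 0.957 (0.913 to 1.00), and Uqcrc2 is listed with fractional counts (3504.01 and 3633.43). Uqcrq, the most abundant transcript of the complex at 496 and 529 TPM, had a ratio of 0.949 (0.866 to 1.04). Uqcrh, the acidic hinge protein that helps cytochrome c1 meet cytochrome c, had 859 and 803 counts (347 and 326 TPM), a ratio of 1.06 (0.963 to 1.17), and Uqcrb had 1112 and 1091 counts (1.01, 0.929 to 1.10).

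Complex IV, cytochrome c oxidase, had 9 of 15 measured genes below 0 (60%, against 50.3% of all genes) and 6 above. Its median of -0.027 turned to 0.013 once the length trend was removed. Its summed counts were 22072 with Aβ and 22446 with DMSO, giving a ratio of 0.975 (0.957 to 0.994). Of the 15 genes, 5 had an interval below 1 (33.3%, against 6.88% of all genes) and 2 one above it (13.3%, against 6.49%). The main isoform of subunit IV, Cox4i1, had 3851 counts in both libraries (963 and 958 TPM). The 3 most abundant transcripts encode small membrane subunits. Cox6c had 1782 and 1898 counts (1213 and 1319 TPM), a ratio of 0.931 (0.873 to 0.994). Cox7c had 1870 and 1968 counts (1076 and 1149 TPM), a ratio of 0.943 (0.884 to 1.00). Cox8a had 2025 and 2137 counts (1063 and 1135 TPM), a ratio of 0.940 (0.884 to 0.999). All 3 had fewer counts with Aβ, and the intervals of Cox6c and Cox8a end just below 1.

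Cox5a and Cox5b, which sit together on the matrix side of the enzyme, had values on either side of 1. Cox5a had 1216 estimated counts with Aβ and 1314 with DMSO (0.918, 0.848 to 0.993), and Cox5b 1135 and 1112 (1.01, 0.931 to 1.10). Ndufa4, named for complex I and later placed in complex IV, had 2216 and 2394 counts (449 and 481 TPM), a ratio of 0.918 (0.866 to 0.973). Cox7b had 1204 and 1172 counts, a ratio of 1.02 (0.939 to 1.11). Cox7a2l, also known as SCAF1, helps to join complexes III and IV into supercomplexes. It had 2638 estimated counts with Aβ and 2415 with DMSO (326 and 295 TPM), a ratio of 1.08 (1.02 to 1.15), and was the only other gene with whole counts and an interval above 1 besides Ndufs1.

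Complex V had 14 of 16 genes below 0 (87.5%, against 50.3% of all genes), a median of -0.064 and a summed ratio of 0.970 (0.960 to 0.981). With the length trend removed, 11 of 16 lay below 0, against 52.2% of all genes, and the median was -0.036. Of the 16, 3 had an interval below 1 (18.8%, against 6.88% of all genes) and none had one above it. Complex V holds the most deeply counted subunits. Atp5b, the catalytic β subunit, had 21759 estimated counts with Aβ and 21766 with DMSO (1424 and 1401 TPM), a ratio of 0.992 (0.973 to 1.01). Atp5a1, the α subunit that alternates with β in the head, had 16604 and 17120 counts (1024 and 1037 TPM), a ratio of 0.962 (0.942 to 0.983). From TPM the log2 ratio of Atp5a1 was -0.019 in place of -0.056, and that of Atp5b was 0.024 in place of -0.012, both outside their counting intervals. Both lay below the median of all genes from TPM, 0.037. Atp5c1, the γ subunit that turns within the head, had 3478 and 3651 counts (428 and 444 TPM), a ratio of 0.945 (0.902 to 0.990). Of the head and central stalk, β and δ (Atp5d, 2085 and 2052 counts; 1.01, 0.948 to 1.07) had intervals that include 1, and so did ε (Atp5e, 527 and 585 counts; 0.894, 0.793 to 1.01).

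Subunit c forms the rotating ring in the membrane and is encoded by 3 genes whose mature proteins are the same. Atp5g2 gave most of its counts, 4291 with Aβ and 4531 with DMSO (1326 and 1398 TPM; ratio 0.939, 0.901 to 0.980). Atp5g3 gave 2663 and 2781 (0.95, 0.90 to 1.00) and Atp5g1 691 and 722 (0.949, 0.854 to 1.06). The sum of the 3 genes had a ratio of 0.944 (0.915 to 0.974). The division among them was the same within counting error: Atp5g2 held 56.1% of their counts with Aβ (55.0 to 57.2%) and 56.4% with DMSO (55.3 to 57.5%), Atp5g3 34.8% and 34.6%, and Atp5g1 9.04% and 8.99%. The peripheral stalk genes Atp5h, Atp5j and Atp5o had ratios of 0.971, 0.951 and 0.942, with intervals that include 1. Atp5s and Atp5sl came in by symbol but are named Dmac2l and Dmac2 in RefSeq, and stood far below the rest, at 7.77 and 8.25 TPM and at 24.4 and 23.8 TPM. Both count among the complex V genes below 0, and without them the median of the complex was also -0.064. Atp5sl is counted again, as Dmac2, among the complex I assembly factors.

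For the shortest transcripts the level per length rests on few reads. Atp5i, the membrane subunit e of ATP synthase, had 346 counts with Aβ and 322 with DMSO but 1316 and 1308 TPM, next to the 1424 and 1401 TPM that Atp5b reached from far more counts. Its effective length was 24.8 bases with Aβ and 22.7 with DMSO, where that of Atp5b was 1440 and 1434. Its count ratio was 1.07 (0.913 to 1.24), the highest in complex V. Effective lengths were longer with Aβ by a median of 5.89 bases over the subunits and 5.90 over all genes, so TPM lowers the Aβ value of a short transcript relative to its count. Atp5e had an effective length of 74.5 and 70.0 bases and 667 and 771 TPM. In all, 11 subunits lay under 150 bases, and their TPM order should be read with that in view.

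Some entries share their sequence with near-copies, and there the single gene is less certain than the sum. Uqcr10, a small complex III subunit, was listed at 22.17 counts with Aβ and 23.00 with DMSO (16.7 and 17.7 TPM), far under its partners. The entry RGD2320734, which RefSeq names Uqcr10-ps1, a pseudogene, was listed at 255.83 and 251.00 counts (613 and 638 TPM). Both together gave whole numbers, 278 and 274, with a ratio of 1.01 (0.849 to 1.19). The low value of Uqcr10 alone is therefore uncertain.

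Cycs and LOC100363502 (Cycs-ps9, a pseudogene in RefSeq) also summed to whole numbers, 2538 counts with Aβ and 2756 with DMSO. Their joint ratio was 0.913 (0.865 to 0.964), a value for the pair that does not depend on how reads were divided between these entries. LOC100363502 alone was listed at 492.83 and 566.61 counts (0.862, 0.763 to 0.975). The ratio of Cycs alone still rests on that division, which the estimated counts do not show. Cox7a2l2 was the third gene with an interval above 1, at 45.59 and 26.48 fractional counts (1.75, 1.06 to 2.96). Its sum with Cox7a2, at 1634 and 1650 counts, had a ratio of 0.982 (0.917 to 1.05). Usmg5 (Atp5mk in RefSeq, a small ATP synthase subunit outside the symbol rule) and its pseudogene entry LOC103693430 summed to 709 and 735 counts (0.957, 0.862 to 1.06).

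Cox7a1, the form of subunit VIIa known from heart and muscle, was the only subunit called different. It had 5 estimated counts with Aβ and 19 with DMSO (0.460 and 1.63 TPM), a ratio of 0.261 (0.0762 to 0.723). Its gene identifier has no match in the RefSeq table, which gives the name Cox7a1 to another entry, LOC687508. That entry stood at 41.40 and 29.20 counts, in the opposite direction. The sum of both, 46.40 and 48.20 counts, had a ratio of 0.955 (0.620 to 1.45). As this sum is not whole and Cox7a1 itself is, the table does not show that these entries share reads. The call rests on few reads and was lost with a pseudocount of 5 CPM and with a filter of 10 CPM.

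**Figure D4:**
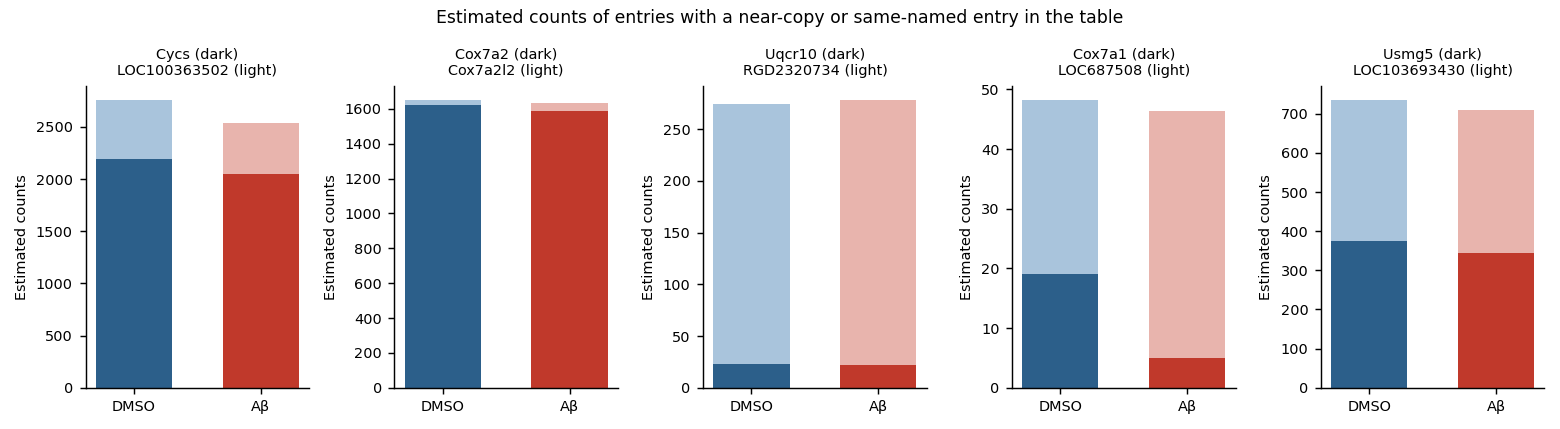
Estimated counts (bars start at 0) of 5 entries (dark) and a near-copy or, for Cox7a1, the entry that RefSeq gives the same name (light), stacked, in the DMSO and Aβ libraries. The total of Cycs with LOC100363502 is lower with Aβ (2538 against 2756 counts), while the intervals of the other 4 ratios include 1, as for Uqcr10 with RGD2320734 at 278 and 274 counts.

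Several complex IV subunits have a second isoform that is typical of certain tissues or states. Cox6b2, known from testis, was the most visible here, at 154 counts with Aβ and 151 with DMSO (88.5 and 87.7 TPM). It held 6.96% (5.93 to 8.10%) of the counts of the pair with its common form, listed as LOC688869 and named Cox6b1 in RefSeq, with Aβ and 6.95% (5.92 to 8.10%) with DMSO. Cox4i2, an isoform linked to oxygen sensing, held 0.440% (0.256 to 0.703%) of the Cox4 pair with Aβ and 0.285% (0.142 to 0.509%) with DMSO, from 17 and 11 counts. Ndufa4l2, a gene known to respond to hypoxia, held 0.315% and 0.499% of its pair with Ndufa4. The muscle form Cox6a2 had 1 count with Aβ and 0 with DMSO, where the interval of its share of the pair reaches 0.157%. For the Cox7a pair, Cox7a1 held 0.314% (0.102 to 0.731%) of the counts with Cox7a2 with Aβ and 1.16% (0.698 to 1.80%) with DMSO, the largest difference among these pairs, with intervals that barely overlap. This share takes the entry listed as Cox7a1, which has no RefSeq match. LOC687508, which RefSeq names Cox7a1, went the opposite way, at 41.40 counts with Aβ and 29.20 with DMSO. The intervals of the other pairs' shares overlap more widely.

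A few subunits fall outside the symbol rule. Ndufab1, the acyl carrier protein of complex I, had 1004 estimated counts with Aβ and 1095 with DMSO (0.909, 0.834 to 0.992). The entries that RefSeq names Ndufa13, Ndufs6 and Cox6b1 had ratios of 1.02 (0.915 to 1.13), 0.997 (0.819 to 1.21) and 1.01 (0.949 to 1.07). Atpif1, the inhibitor that keeps ATP synthase from running backwards, had 948 and 951 counts (0.989, 0.903 to 1.08).

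Genes that build, supply or regulate the chain were described from lists. Of 17 complex I assembly factors, 8 had more and 9 fewer counts with Aβ after scaling (median log2 ratio -0.00014). An interval above 1 was seen for Timmdc1 with 572.26 and 473.64 counts (1.2, 1.06 to 1.36) and Ndufaf2 with 120 and 87 (1.37, 1.03 to 1.82), and for none below (11.8% above, against 6.49% of all genes). The lowest at 10 CPM or more was Nubpl, an iron-sulphur cluster factor, at 0.892 (0.72 to 1.10). The 7 complex III factors had a median of 0.085, with Ttc19 at 362 and 293 counts (1.23, 1.05 to 1.43) and Uqcc2 at 0.888 (0.768 to 1.03). Ttc19 was the only one of the 7 with an interval that left out 1 (14.3%, against 6.49% of all genes above 1). The 28 complex IV factors had a median of -0.016, with 2 intervals below 1 (7.14%, near the 6.88% of all genes), Coa3 at 283 and 336 counts (0.835, 0.711 to 0.981) and Fastkd1 at 312 and 364 counts (0.850, 0.729 to 0.992). Their lowest and highest genes at 10 CPM or more were Fastkd5 at 0.829 (0.665 to 1.03) and the copper chaperone Sco1 at 1.12 (0.948 to 1.33).

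The smaller assembly lists had no interval that left out 1. In complex II assembly, Sdhaf1 was at 0.949 (0.777 to 1.16) and Sdhaf4 at 1.07 (0.861 to 1.33), with a median of -0.047 over 3 genes. In complex V assembly the median was 0.075 over 5 genes, with the membrane insertase Oxa1l at 0.999 (0.929 to 1.07) and Tmem242 at 1.11 (0.963 to 1.27). The 13 genes of coenzyme Q synthesis had a median of -0.0020. Their ratios ran from Pdss1 at 0.816 (0.663 to 1.00) to Coq10a at 414 and 347 counts (1.18, 1.02 to 1.37). Coq10a was the only one of these with an interval that left out 1 (7.69%, near the 6.49% of all genes above 1).

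Regulators of mitochondrial biogenesis had a median on the other side of 0; the difference from the subunits was not tested. Of 14 measured genes, 9 lay above 0, with a median log2 ratio of 0.068. Ppargc1a, the coactivator that switches on many mitochondrial genes, was low in both libraries, at 182 counts with Aβ and 205 with DMSO (2.94 and 3.23 TPM; 0.881, 0.717 to 1.08). Nrf1, the factor whose motif is printed above, had 609 and 579 counts (1.04, 0.930 to 1.17). Tfam, which maintains mitochondrial DNA, had 972 and 929 counts (1.04, 0.948 to 1.14). Gabpa, the ETS factor of NRF2, had 1424 and 1544 counts (0.915, 0.851 to 0.984). It was the only regulator with an interval below 1 (7.14% of the 14, near the 6.88% of all genes). Nrip1, a corepressor, had the highest ratio at 10 CPM or more, 1.12 (0.980 to 1.28).

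Carriers, cristae genes and citric acid cycle enzymes gave medians of -0.023 over 7, -0.036 over 15 and -0.0087 over 14 genes. Slc25a4 and Slc25a5, which exchange ADP for ATP, had ratios near 1, at 8074 and 7948 counts (1.01, 0.977 to 1.04) and 4822 and 4770 (1.00, 0.963 to 1.04). Slc25a3, which brings phosphate to ATP synthase, had 7499 and 8057 counts (0.923, 0.894 to 0.953). It was the only one of the 7 carrier genes with an interval that left out 1 (14.3%, against 6.88% of all genes below 1). Among cristae genes Mtx2 (436 and 522 counts; 0.828, 0.728 to 0.943), Apoo (0.855, 0.732 to 0.997) and Dnajc11 (0.913, 0.844 to 0.987) had intervals below 1 (3 of 15, or 20%, against 6.88% of all genes), and Micos13 had the highest ratio (1.05, 0.953 to 1.16). In the citric acid cycle Ogdh, a subunit of 2-oxoglutarate dehydrogenase, was at 2066.54 and 1835.68 counts (1.12, 1.05 to 1.19) and Sucla2 at 0.943 (0.876 to 1.02). Ogdh was the only one of these 14 genes with an interval that left out 1 (7.14%, near the 6.49% of all genes above 1). No gene of these lists was called different.

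**Figure D5:**
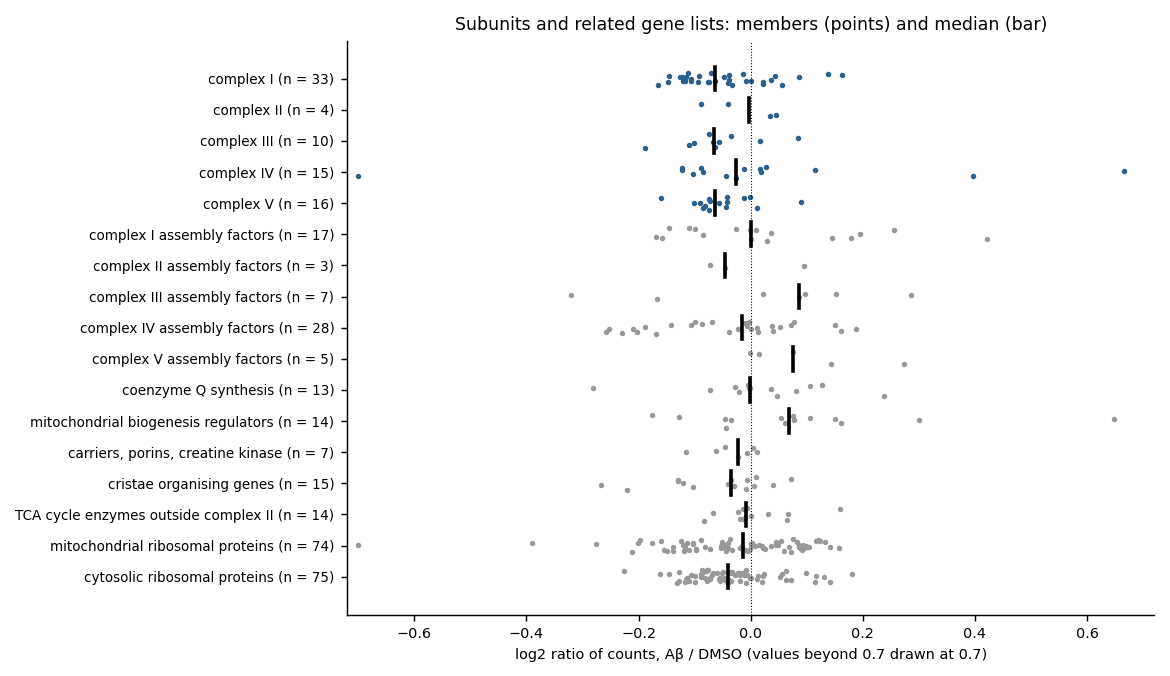
Log2 ratio of Aβ over DMSO for the measured genes of each complex (blue) and of related lists (grey), with the median as a bar. The medians of complexes I, III and V lie at -0.065, -0.066 and -0.064, that of complex II at -0.0026, and that of the biogenesis regulators at 0.068. Vertical scatter within a row has no meaning.

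Both libraries had nearly equal depth, 15117102 estimated counts with Aβ and 15019416 with DMSO, and 16580 and 16568 genes above 0. The OPC label was checked on markers: all 8 OPC markers were measured, with a summed level of 2224 TPM with Aβ and 2150 with DMSO. Astrocyte markers summed to 1512 and 1442 TPM, of which Gfap alone had 839 and 793, with all 6 measured. Neuronal markers summed to 587 and 558 TPM (6 of 6 measured). Of these, Tubb3 had 372 and 353 TPM and Map2 151 and 142, while Rbfox3 had 6.39 and 6.28. Oligodendrocyte markers summed to 59.9 and 57.5 TPM (4 of 6) and microglial markers to 7.96 and 8.76 (3 of 6). Endothelial markers summed to 0.85 and 1.08 TPM (2 measured of 5 listed, of which Cldn5 and Cdh5 had no matching entry) and those of pericytes and fibroblasts to 2.43 and 3.12 (2 of 5, of which Dcn had none), with Rgs5 and Lum at 0 with Aβ. By summed counts Aβ over DMSO was 1.02 (1.01 to 1.03) for OPC markers, 1.02 (1.00 to 1.03) for astrocyte markers and 1.03 (1.01 to 1.05) for neuronal markers. It was 1.05 (0.972 to 1.13) for oligodendrocyte, 0.908 (0.682 to 1.21) for microglial, 0.808 (0.530 to 1.23) for endothelial and 0.891 (0.70 to 1.13) for pericyte and fibroblast markers. Several of these ratios lie as far from 1 as the 0.971 of the subunits. Single markers with an interval that leaves out 1 were Gpr17 (1.17), Pdgfra (1.08) and Ptprz1 (1.01) of the 8 OPC markers. Of the astrocyte markers they were Gfap (1.03) and Aldh1l1 (0.883, 0.809 to 0.963), and of the neuronal markers Map2 (1.04). That is 37.5% of OPC markers above 1, 16.7% of astrocyte markers above and 16.7% below, and 16.7% of neuronal markers above. Over all genes 6.49% lay above and 6.88% below. The OPC markers had a median of 4217 counts with Aβ, against 486 over all genes. With the length trend removed, their median log2 ratio went from 0.0145 to 0.0012 and the log2 ratio of Ptprz1 from 0.020 to -0.013. The part of cell makeup in the subunits' values was not tested.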

How the data were processed

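Both libraries, 1 per group, were assigned from the labels' treatment field. Bowtie2 and the build Rnor_6.0 stand in the submitters' processing notes; for the quantifier, annotation and use of strand, none is given in the sources used here. What the authors deposited are estimated counts (expected counts, not all whole, fractional for 13.3% of genes above 0), TPM scaled to the same total, FPKM scaled by length and library, and, per the file headers, a normalized signal that was not used. FPKM served only to derive effective lengths.

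Counts were rounded and scaled by TMM effective library sizes (edgeR 4.0.16, R 4.3.3). The log2 ratio is log2((CPM with Aβ + 0.5)/(CPM with DMSO + 0.5)), a scale on which low genes differ less than they do in counts. Plain ratios, with no pseudocount, have exact 95% Clopper-Pearson intervals, computed with scipy 1.17.1, which cover counting error only. A floor of 3 counts was set down as a parameter but entered no ratio or interval. A count of 0 stayed 0, and only the pseudocount acts on it in the log2 ratio. Measured genes had 1 CPM or more in a library. The length trend is a lowess fit (span 0.3, statsmodels 0.14.6) over all measured genes. Scripts were tested on simulated data.

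Alternatives were library totals, DESeq2 1.42.0 size factors, deposited TPM, no filter, 10 CPM, a pseudocount of 5 CPM, whole counts only, removal of the length trend, and 1.5-fold or 1.2-fold thresholds. Other placements of Ndufa4, Ndufa4l2, Atp5s and Atp5sl, and the alternatives for the counts of intervals that leave out 1, were added after seeing the data. The members and lists were chosen with earlier results of these data known. Of 218 list genes 209 were matched, 13 by RefSeq symbol. RefSeq matched 79 members by identifier, 16 under a newer symbol. The text names the 3 most abundant genes per complex, all of complex II and cytochrome c, the complex I core, the 2 highest and 2 lowest ratios per complex at 10 CPM or more in both libraries, every gene that was called, has an interval without 1 or has fractional counts, isoform pairs, the extremes of each list and 6 regulators and carriers. One gene that this rule takes is not reported here. Other subunits were named for their role after their values were seen.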

Additional observations from a re-analysis of the deposited data

How the results depend on the processing

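No paired analysis was possible because each group had 1 library, and for the same reason no library could be left out. The median log2 ratio of all measured subunits stayed between -0.066 (whole counts only) and -0.031 (length trend removed) under every alternative, and the medians of complexes I, III and V stayed below 0. Those of complex II (0.033 with TPM) and complex IV (0.013 with the length trend removed) changed sign within the counting error of their genes. No subunit was called higher at 2-fold, and 1 was at 1.5-fold and 1 at 1.2-fold (Cox7a2l2). The 1 call lower (Cox7a1) became 0 with a filter of 10 CPM and 0 with a pseudocount of 5 CPM, where its log2 ratio was -0.23. Subunits with an interval below 1 numbered 15, 14 with library totals and 12 with DESeq2 size factors. Of 78 single ratios, 10 changed sign with the length trend removed and 4 with TPM, and the log2 ratios of Atp5a1 (-0.019) and Atp5b (0.024) moved beyond their counting intervals with TPM. With TPM the median of all genes was itself 0.037, above the values of complex II, Atp5a1 and Atp5b. The depth of 15117102 and 15019416 counts resolves differences of a few percent for abundant subunits in counting error, while variation between cultures was not measured.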
